A study of Mus musculus with 12 samples.

Results

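This account covers 48 genes of DNA replication and S phase in the mouse spleen. They code for the proteins that license and fire replication origins, copy DNA, supply its building blocks, package the new strands and switch these genes on and off. The genes were found on the array by symbol, using probe sets (groups of short probes for one transcript) that the platform annotation assigns to a single gene. Of the 48 genes, 47 had such a probe set, out of 18193 genes with a single symbol on the array. Chaf1a, which codes for a subunit of the histone chaperone CAF-1, had none and was not analysed here. The 47 genes had 105 probe sets, and each gene is represented by the one with the highest mean over the 12 arrays.

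Total RNA from the spleens of BALB/c mice was measured on 12 Affymetrix expression arrays. The labels give 4 groups of 3 mice each: Il1rn-deficient mice (ko) at 4 months, wild-type mice (wt) at 4 months, ko mice at 1 month and wt mice at 1 month. Il1rn codes for the IL-1 receptor antagonist, a secreted protein that keeps IL-1 from activating its receptor, and its loss on the BALB/c background is known to cause spontaneous arthritis. The allele, the sex of the mice and a disease score were not given in the labels used here, and p-values measure only the spread between these mice.

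Before a cell copies its DNA, the origin recognition complex, Cdc6 and Cdt1 load the MCM helicase onto origins, a step called licensing. Cdc45 and the GINS complex then switch the helicase on, primase and DNA polymerase alpha lay down primers, and polymerases delta and epsilon extend them with the sliding clamp PCNA. Most of these genes are transcribed under the control of E2F factors as cells enter S phase. The mouse spleen, unlike the adult human spleen, keeps making red blood cells, granulocytes and platelets in its red pulp, and its B cell follicles hold lymphocytes that can be driven to divide.

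Because E2F control is the known link between these genes, their promoters were searched for the E2F words TTTCCCGC, TTTCGCGC, TTTGCCGC and TTTGGCGC on both strands. RefSeq promoter windows of the assembly GRCm38.p6, from 250 bases before to 50 bases after the transcript start, were found for 41 of the 48 genes. Ccne2, Gins1, Gins2, Mcm4, Pole, Prim2 and Rfc2 had no window in the table used. An E2F word was present in the window of 16 of the 41 genes (39.0%), against 2.61% of 27025 genes in the whole table and 3.81% of 14452 genes whose symbols are on the array. The CCAAT box, a common promoter word searched in the same way, was present in 26 of the 41 genes (63.4%), against 41.1% and 42.0%. The genes with an E2F word were Mcm3, Mcm5, Mcm6, Mcm7, Orc1, Cdt1, Cdc6, Rfc3, Pola1, Pold1, Pole2, Lig1, E2f2, E2f7, Dnmt1 and Uhrf1. A match is only a description of the letters, and binding was not measured. The stretches below show how these words lie upstream of 5 genes of different roles, namely 3 licensing genes, an E2F gene and the catalytic subunit of polymerase alpha. Each is 100 bases read 5′ to 3′ on the strand of the gene, and capitals mark E2F words on either strand.
Cdc6 (chr11:98907998-98908097, plus strand): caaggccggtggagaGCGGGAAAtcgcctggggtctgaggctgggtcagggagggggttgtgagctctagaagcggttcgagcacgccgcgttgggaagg
Mcm5 (chr8:75109341-75109440, plus strand): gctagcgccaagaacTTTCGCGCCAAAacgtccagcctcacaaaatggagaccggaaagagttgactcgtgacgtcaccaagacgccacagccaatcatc
Mcm6 (chr1:128359731-128359830, minus strand): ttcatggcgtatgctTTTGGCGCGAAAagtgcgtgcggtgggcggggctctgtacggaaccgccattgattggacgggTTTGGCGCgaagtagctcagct
E2f7 (chr10:110745226-110745325, plus strand): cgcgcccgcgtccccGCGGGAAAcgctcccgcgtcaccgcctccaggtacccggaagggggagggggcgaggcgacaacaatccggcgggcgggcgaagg
Pola1 (chrX:93632209-93632308, minus strand): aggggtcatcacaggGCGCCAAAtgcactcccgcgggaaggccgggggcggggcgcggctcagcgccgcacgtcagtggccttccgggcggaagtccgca
In the Mcm5 and Mcm6 stretches a pair of E2F words on opposite strands overlap and read as 1 run of capitals, and Mcm6 has a further word closer to its start.

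The labels and the arrays were checked first. The Il1rn probe set with the highest mean read between 5.64 and 40.8 in the 6 ko arrays and between 120.5 and 278 in the 6 wt arrays, in units of signal scaled to a trimmed mean of 500. It was called lower in ko at 4 months (log2 difference -2.17, limma adjusted p = 0.0034) and at 1 month (-1.70, limma adjusted p = 0.0403). The other 2 Il1rn probe sets were not called. Of these, the first read between 34.6 and 78.3 in ko and between 81.2 and 207.9 in wt, with no overlap, and the second overlapped, with 10.5 to 98.01 in ko and 24.3 to 199.8 in wt. Whether any of these probe sets lies in the deleted part of the gene is not given in the sources used here. For the spleen label, the B cell markers Ms4a1, Cd79b and Cd22 and the red pulp macrophage marker Spic passed the filter on dim probe sets. The 7 B cell markers summed to 40506 to 51815 in ko and 48507 to 58699 in wt at 4 months, and to 21862 to 25525 in ko and 30299 to 33094 in wt at 1 month. Some arrays stood apart. In wt at 4 months replicate 2, the 4 measured pancreas markers summed to 88177, against 1649 and 1803 in the other wt arrays of that age, 2077 to 2504 in ko at 4 months, 1226 to 1428 in ko at 1 month and 1285 to 1460 in wt at 1 month. The highest deposited signal fell into a low set of 33427 to 37921 and a high set of 51247 to 68987. The low set held replicate 2 of ko at 4 months, replicate 3 of wt at 4 months, all 3 ko arrays at 1 month and replicate 3 of wt at 1 month. For the 47 genes and for the other gene lists, counts without the array with pancreas signal and within the low set are given below, or with the dependence on processing, where they change a call.

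All 47 genes passed the filter on dim probe sets (3 or more arrays with a scaled signal of 100 or above). Differences are on a log2 scale after adding 32 to the scaled signal, and a probe set is called when its limma p, adjusted over the 27041 probe sets tested with the Benjamini-Hochberg method, is under 0.05. The genotype comparisons at each age share their arrays with the age comparisons in each genotype, so their values are set side by side and are not independent of each other. Some of the chosen probe sets, those of Mcm3, Mcm5, Mcm7, Gins2, Pold1, Fen1, Rrm2 and Ccne1, are of the Affymetrix classes that share probes between transcripts, so their signal may hold RNA of a related sequence. In whole spleen, fewer cells of a dividing type and less RNA per cell cannot be told apart.

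Averaged over the 47 genes, the signal formed a ladder with the wt spleens at 4 months on the lowest rung. The mean log2 signal of the genes, relative to each gene's mean over the 12 arrays, was -0.38, -0.19 and -0.22 in ko at 4 months, against -0.89, -0.51 and -0.96 in wt at 4 months. At 1 month it was 0.63, 0.60 and 0.66 in ko, against 0.53, 0.32 and 0.42 in wt. By this mean every array at 1 month lay above every array at 4 months, and at each age the 3 ko arrays lay above the 3 wt arrays. By summed signal the genotypes overlapped at 1 month, at 229170 to 229977 in ko and 202554 to 247158 in wt. All ko arrays of that age are of the low set, and of the wt arrays only replicate 3 is. The highest wt array at 4 months was replicate 2, the array with pancreas signal: it was the highest of the 3 for 42 of the 47 genes, while 29.2% of all tested probe sets have it highest. For 17 of the 47 genes (36.2%) the single arrays kept the same order without any overlap, wt at 4 months below ko at 4 months below both groups at 1 month, and 2.6% of all tested probe sets show that order. These 17 were Mcm4, Cdc6, Cdc45, Pole, Prim1, Lig1, Rrm1, Rrm2, Tyms, Tk1, Dut, E2f2, E2f7, E2f8, Chaf1b, Slbp and Brca1. By group means alone, 44 of the 47 genes kept the order, as did 15.4% of all tested probe sets, and Rfc2, Pold1 and Dnmt1 did not.

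**Figure D1:**
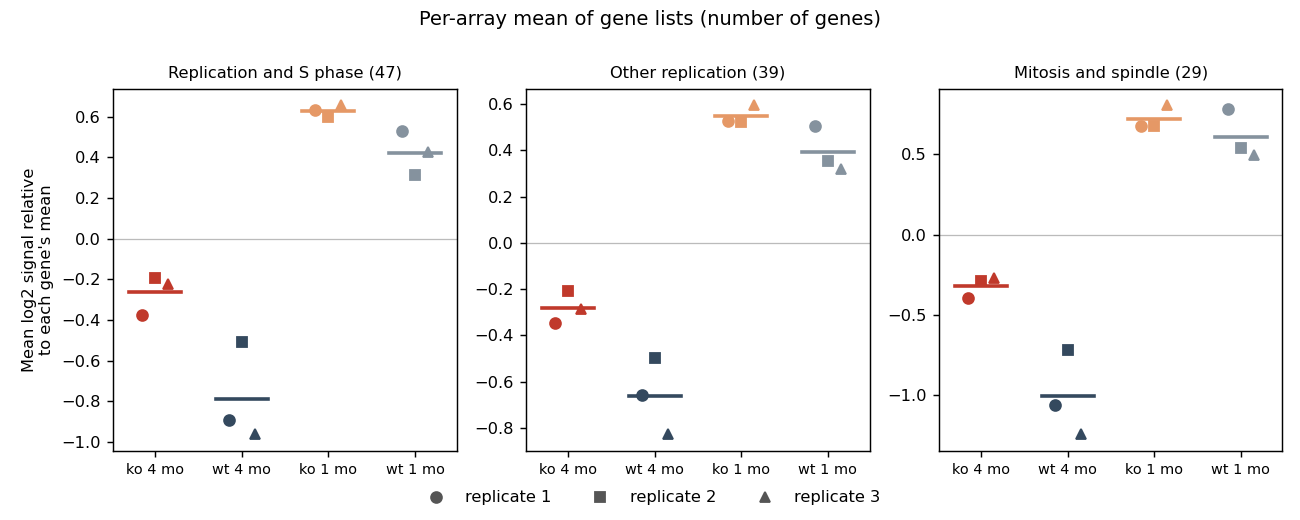
Mean log2 signal of 3 gene lists per array, relative to each gene's mean over 12 arrays (vertical axis, log2 units), for the 47 replication and S phase genes, 39 other replication genes and 29 mitosis genes. Points are arrays, shaped by replicate number, and bars are group means: in the left panel the ko arrays at 4 months lie between -0.38 and -0.19 and the wt arrays of that age between -0.96 and -0.51, below all arrays at 1 month.

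At 4 months, 9 of the 47 genes were higher in ko spleens: the E2F factors E2f8, E2f2 and E2f7, the licensing factor Cdc6, the nucleotide enzymes Tk1 and Rrm2, the DNA ligase Lig1, the maintenance DNA methyltransferase Dnmt1 and the histone chaperone subunit Chaf1b. They make up 19.1% of the genes, and 1.78% of all tested probe sets were called higher in this comparison. None was called lower, and at an unadjusted limma p under 0.05 there were 32 higher and 0 lower, where 8.61% of all tested probe sets were higher at that threshold. The median log2 difference of the 47 genes was 0.50, or 1.42-fold, against -0.0097 over all tested probe sets. By the chosen probe sets the difference was above 0 for 46 genes and below 0 for 1, and ranged from -0.19 to 1.25. Of all 94 tested probe sets of these genes, 88 were above 0 and 6 below, down to -0.59. Probe sets of both signs occurred in 5 genes. The 3 ko arrays lay above the 3 wt arrays without overlap for 22 genes, as they did for 10.9% of all tested probe sets.

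The 3 largest differences belonged to E2F factors, which divide into activators of S phase genes (E2F1 and E2F2) and repressors that shut the same genes off later in S phase (E2F7 and E2F8). E2f8 had a scaled signal of 1834, 1594 and 1779 in ko spleens at 4 months, against 768, 867 and 533 in wt. At 1 month it read 2756, 3262 and 4441 in ko, against 2742, 3337 and 2864 in wt. The 4-month groups were well apart and the 1-month groups overlapped, with a log2 value of 1.25 for ko minus wt at 4 months (SE 0.19, limma adjusted p = 0.0021). E2f7, the related repressor, read 480, 526 and 564 in ko at 4 months, against 223, 291 and 122 in wt, and its log2 difference was also 1.25 (SE 0.23, limma adjusted p = 0.0093). At 1 month E2f7 read 879, 867 and 1080 in ko, against 1002, 836 and 669 in wt, again with overlap.

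E2f2, an activator, is known for its part in the divisions of maturing red cell precursors in the mouse. Its signal was 4495, 3996 and 4069 in ko at 4 months, against 1860, 2534 and 1181 in wt (log2 difference 1.22, SE 0.20, limma adjusted p = 0.0048). The highest ko array at 4 months, 4495, lay just below the lowest array at 1 month, 4597. The 1-month arrays read 5322, 5002 and 6148 in ko and 5652, 4635 and 4597 in wt. A second E2f2 probe set was called as well, at 1.05 (SE 0.25, limma adjusted p = 0.0399). E2f1, the other activator measured, read 376, 541 and 385 in ko at 4 months, against 268, 374 and 329 in wt. Its ko arrays also lay above the wt arrays, but by a log2 of 0.38 (SE 0.26, limma adjusted p = 0.497), which was not called.

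Among the licensing genes, Cdc6 alone passed the test at 4 months. Cdc6 helps to load the MCM helicase and is used up in each S phase. It read 2368, 2499 and 2574 in ko at 4 months, against 1104, 2108 and 1154 in wt (log2 difference 0.82, SE 0.20, limma adjusted p = 0.0372). Replicate 2 of the wt group, at 2108, lay close to the ko arrays, and the other wt arrays lay well below them. The other 9 licensing genes had log2 differences between 0.20 and 0.62 and were not called: the MCM helicase subunits Mcm2 (0.62), Mcm7 (0.53), Mcm3 (0.47), Mcm4 (0.35), Mcm6 (0.31) and Mcm5 (0.28), the origin recognition subunits Orc1 (0.40) and Orc6 (0.24), and the loading factor Cdt1 (0.20). Of the 3 other Mcm7 probe sets 1 was called, at 0.68 (SE 0.17, limma adjusted p = 0.0475).

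The genes that fire the origin gave values in a narrow band at 4 months and none was called. Cdc45, the helicase activator, was at a log2 difference of 0.64 (SE 0.18, limma adjusted p = 0.0838), Mcm10, a factor for firing, at 0.59, and the GINS subunits Gins1 and Gins2 at 0.55 and 0.53. Cdc45 read 478, 590 and 618 in ko, against 333, 409 and 304 in wt, without overlap. For Mcm10, Gins1 and Gins2 the 2 groups overlapped, and in each the overlapping wt array was replicate 2.

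The clamp, its loader and the single-strand binding proteins showed smaller values. Pcna, the sliding clamp, read 19880, 18224 and 21214 in ko at 4 months, against 14492, 19656 and 13114 in wt (log2 difference 0.35, SE 0.19, limma adjusted p = 0.386). The wt array inside the ko range was again replicate 2. The clamp loader subunits lay at 0.50 (Rfc4), 0.38 (Rfc5), 0.36 (Rfc3) and 0.01 (Rfc2), and the single-strand binding subunits of RPA at 0.49 (Rpa2) and 0.05 (Rpa1), with no call.

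The 8 polymerase and primase genes ranged from -0.19 to 0.70 at 4 months, and none was called. The catalytic subunit of polymerase epsilon, Pole, was at 0.70 (SE 0.21, limma adjusted p = 0.102), with 673, 680 and 687 in ko against 395, 631 and 267 in wt. Prim1, the catalytic primase subunit, had the smallest p of the genes not called, with 2500.5, 2487 and 2594 in ko against 1698, 1932 and 1609 in wt (log2 difference 0.53, SE 0.14, limma adjusted p = 0.071). In both genes the groups did not overlap. Pold1, the catalytic subunit of polymerase delta, was the single gene whose chosen probe set had a negative value, at -0.19 (SE 0.14, limma adjusted p = 0.553). Its 3 ko arrays (1133, 1207 and 1186) lay below the 3 wt arrays (1403, 1278 and 1349). Its second probe set gave 0.24 (SE 0.19), so the probe sets of Pold1 disagree in direction. The remaining subunits lay at 0.43 (Prim2, the large primase subunit), 0.39 and 0.23 (Pola1 and Pola2 of polymerase alpha), 0.22 (Pole2 of polymerase epsilon) and 0.13 (Pold2 of polymerase delta).

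Genes that finish the lagging strand and supply nucleotides held 3 of the 9 calls. Lig1, the ligase that seals Okazaki fragments, read 3065, 2818 and 2775 in ko at 4 months, against 1547, 1972 and 1224 in wt (log2 difference 0.88, SE 0.18, limma adjusted p = 0.0188). Tk1, the thymidine kinase of dividing cells, read 2431, 2853 and 2754 in ko, against 1295, 1979 and 1149 in wt (0.88, SE 0.19, limma adjusted p = 0.0193). In both genes replicate 2 was the highest wt array and still lay below the lowest ko array.

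Rrm2 codes for the S phase subunit of ribonucleotide reductase, which makes deoxynucleotides. It read 9237, 10925 and 12419 in ko at 4 months, against 5467, 7634 and 5577 in wt (0.81, SE 0.17, limma adjusted p = 0.0202), and its other 2 probe sets were called too, at 0.87 and 1.04. Rrm1, the large subunit, was at 0.62 (limma adjusted p = 0.104), Tyms, the thymidylate synthase, at 0.69 (0.106), and Dut, which removes dUTP, at 0.53 (0.0754). The groups did not overlap in any of the 5 nucleotide genes. Fen1, the flap nuclease of the lagging strand, was at 0.48 with overlapping groups, and its second probe set was called at 0.67 (SE 0.16, limma adjusted p = 0.0421).

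Genes for new chromatin gave the remaining calls. Chaf1b, the middle subunit of CAF-1, read 641, 712 and 788 in ko at 4 months, against 426, 535 and 283 in wt (log2 difference 0.78, SE 0.19, limma adjusted p = 0.0413). Dnmt1 read 3105, 3102 and 3375 in ko, against 1935, 2430 and 1632 in wt (0.69, SE 0.16, limma adjusted p = 0.036). No other Dnmt1 probe set was called, and the one that varied most over the arrays gave 0.73 (limma adjusted p = 0.089). Uhrf1, which guides Dnmt1 to newly copied DNA, had a larger difference than Dnmt1 but a wider error (0.86, SE 0.24, limma adjusted p = 0.0767). Slbp, the histone mRNA binding protein, was at 0.31 and Brca1, a repair gene, at 0.60 (limma adjusted p = 0.0761), both without overlap and not called. The cyclins that drive entry into S phase were not called by their main probe sets, Ccne1 at 0.88 (SE 0.24, limma adjusted p = 0.0744) and Ccne2 at 0.46. The second Ccne1 probe set was called at 0.88 (SE 0.21, limma adjusted p = 0.0405). With all 94 tested probe sets counted, 15 were called higher over 12 genes, and the 3 genes added in this way were Mcm7, Fen1 and Ccne1.

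**Figure D2:**
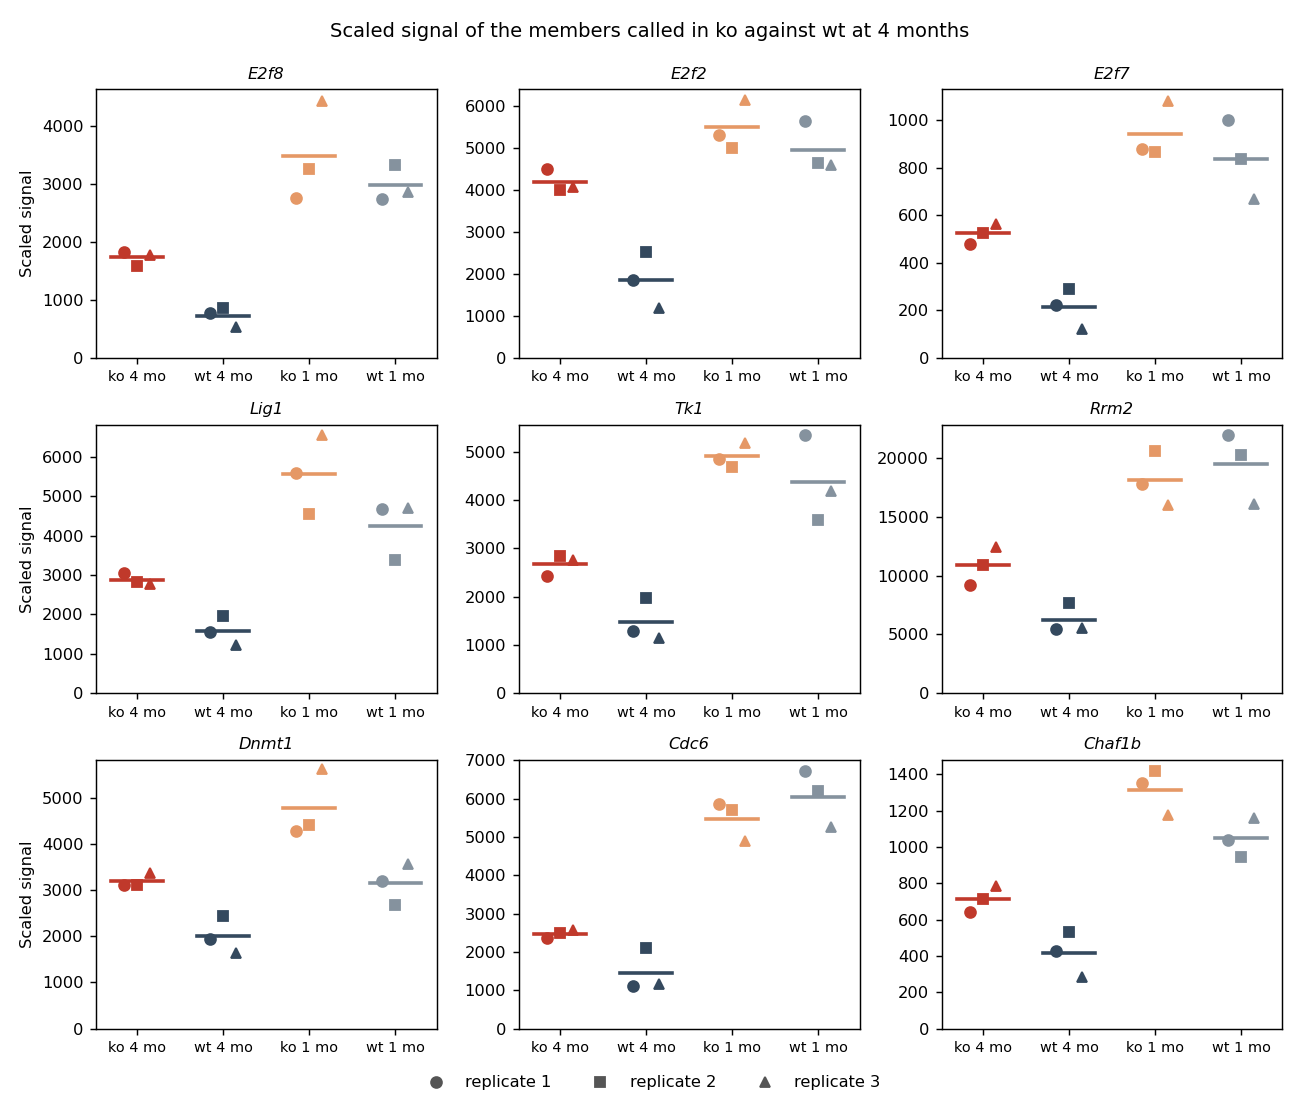
Scaled signal (vertical axis, linear from 0) of the 9 genes called in ko against wt at 4 months, 1 panel a gene, with 3 arrays a group shaped by replicate number and bars at the group means. In each panel the 3 ko arrays at 4 months lie above the 3 wt arrays of that age, and the square of the wt group, replicate 2, is its highest array.

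The number of calls at 4 months depended on single arrays. It was 20 without wt replicate 2, and 3 without wt replicate 1 or wt replicate 3. Leaving out ko replicate 1, 2 or 3 gave 5, 3 and 2 calls. Without wt replicate 2 the median log2 difference was 0.67. Within the low array set, which has 1 array of each group at 4 months and takes its spread from the ko arrays at 1 month, 9 genes were called, and within the high set 1 was. The calls of E2f8 and E2f2 were lost in 1 of 20 alternatives each and that of E2f7 in 2, while those of Tk1, Rrm2, Lig1, Cdc6, Chaf1b and Dnmt1 were lost in 6, 7, 8, 9, 11 and 12.

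At 1 month no gene was called higher or lower in ko, where 0.203% of all tested probe sets were called higher. At an unadjusted limma p under 0.05, 10 genes were higher and 0 were lower, where 6.5% of all tested probe sets were higher. The median log2 difference was 0.18, against -0.035 over all tested probe sets, with 36 genes above 0 and 11 below, and a range of -0.29 to 0.85. Of all 94 tested probe sets of these genes, 77 were above 0 and 17 below, and 12 genes had probe sets of both signs. The ko arrays lay above the wt arrays without overlap for 12 genes, as for 7.99% of all tested probe sets. The 5 genes with the smallest p were Mcm3 (log2 difference 0.81, SE 0.21, limma adjusted p = 0.103), Dnmt1 (0.59, SE 0.16, 0.114), Uhrf1 (0.85, SE 0.24, 0.121), Dut (0.49, SE 0.15, 0.14) and E2f1 (0.80, SE 0.26, 0.162). In Mcm3, Uhrf1 and E2f1 the wt group was spread by replicate 3, the wt array of the low set. Mcm3 read 5003, 5286 and 6177 in ko at 1 month, against 2830, 2190 and 4801 in wt. Uhrf1 read 3390, 4361 and 3963 in ko, against 1972, 1443 and 3464 in wt. E2f1 read 993, 1048 and 1371 in ko, against 608, 404 and 1020 in wt. In all 3 genes replicate 3 was the highest wt array. Without it, 5 genes were called, with Mcm3 at 1.12, Uhrf1 at 1.19, E2f1 at 1.13, Dnmt1 at 0.69 and Dut at 0.60. In that fit the wt arrays of this age are all of the high set and the ko arrays all of the low set. Genotype and array set therefore cannot be told apart in it, and its calls higher over all probe sets were 842, against 55 in the main fit. The array set differs between the genotypes at this age, since the ko arrays are all of the low set. With the array set as a block there were 0 calls and the median was 0.23, and within the low set, which holds 1 wt array of this age, there were 0 calls and the median was 0.19. The median also depended on the probe set chosen, and was 0.31 with the probe set of largest spread for each gene.

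**Figure D3:**
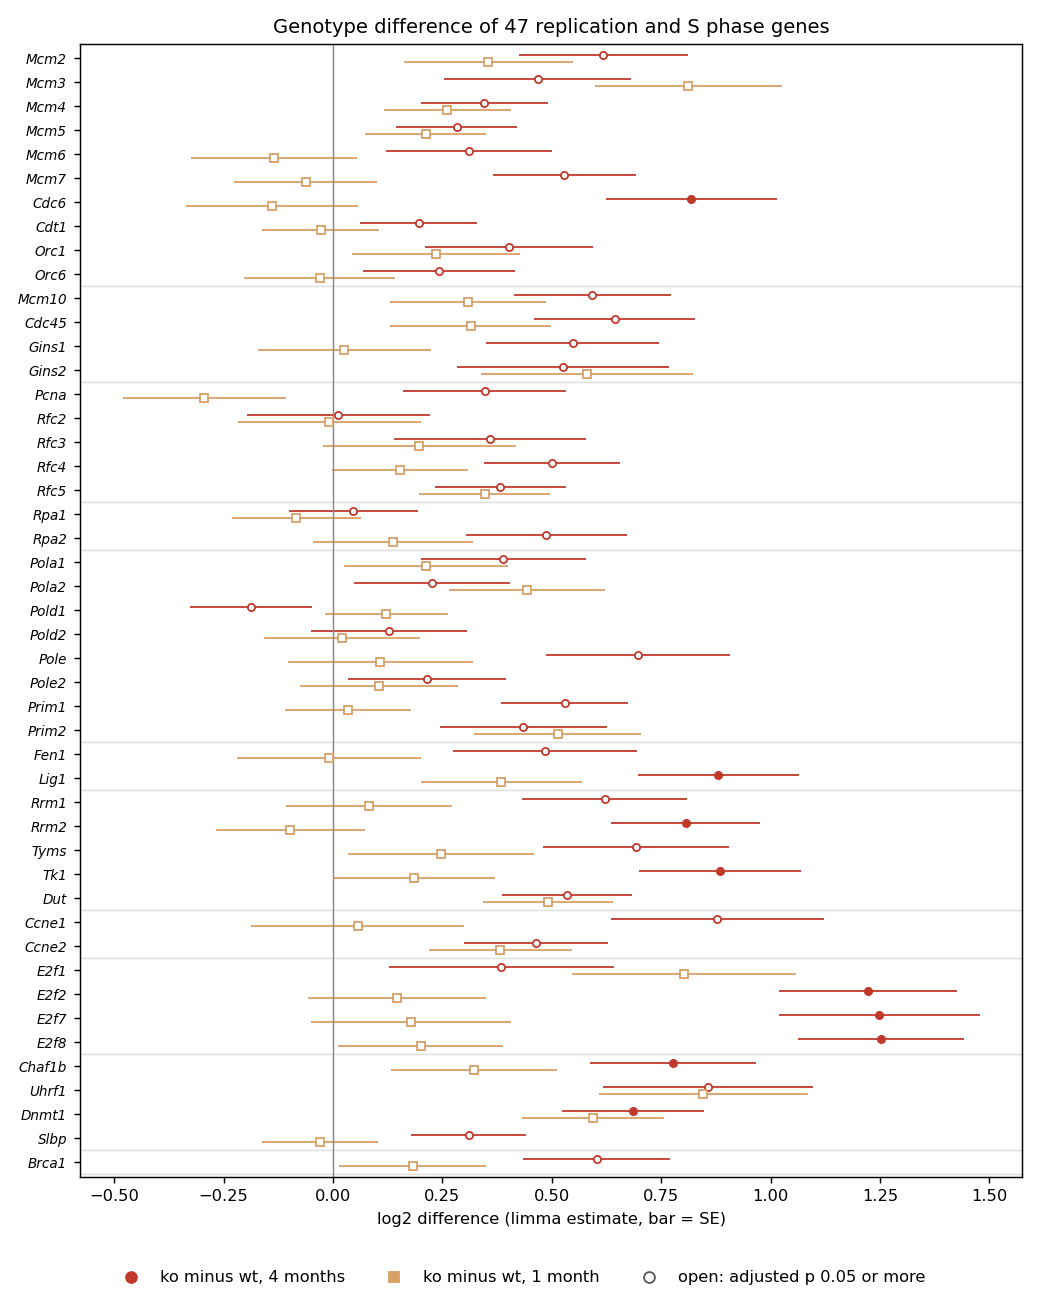
Log2 difference of ko minus wt (horizontal axis, limma estimate with SE bar) for the 47 genes, grouped by role, at 4 months (circles) and 1 month (squares), with filled symbols for an adjusted p under 0.05. At 4 months 46 of the 47 values lie right of 0 and 9 are filled, and at 1 month 36 lie right of 0 and none is filled.

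Whether the genotype effect differed with age was tested directly. No gene was called, where 0.0296% of all tested probe sets were called higher, so a larger effect at 4 months was not shown for any single gene. At an unadjusted limma p under 0.05, 10 genes were higher and 0 lower, where 5.59% of all tested probe sets were higher. The median was 0.28, against 0.032 over all tested probe sets, and ranged from 0.17 with the probe set of largest spread to 0.52 within the low array set. The smallest p belonged to E2f8 (1.05, SE 0.27, limma adjusted p = 0.259), Rrm2 (0.90, SE 0.24, 0.274), E2f2 (1.08, SE 0.29, 0.274), Cdc6 (0.96, SE 0.28, 0.322) and E2f7 (1.07, SE 0.32, 0.352). Without wt replicate 2 of 4 months, Cdc6 (1.25, limma adjusted p = 0.0131) and E2f2 (1.33, limma adjusted p = 0.027) were called.

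Most of these genes were lower at 4 months than at 1 month in both genotypes. In ko spleens 41 of the 47 genes were lower at 4 months than at 1 month, where 9.25% of all tested probe sets were called lower, and the median log2 difference was -0.92, or 1.90-fold lower, against 0.0996 over all tested probe sets. In wt spleens 43 of the 47 were lower, where 9.67% were called lower, and the median was -1.25, or 2.38-fold lower, against 0.0899. No gene was called higher in either genotype, all 47 values were below 0 in both, and at an unadjusted limma p under 0.05 there were 43 lower in ko, 44 lower in wt and 0 higher, where 13.8% of all tested probe sets were lower in ko and 14.1% in wt. The 3 arrays at 4 months lay below the 3 arrays at 1 month without overlap for 44 genes in ko (18.2% of all tested probe sets) and 44 in wt (13.2%). Centring each array on its median moved every age difference by -0.16 in ko and -0.12 in wt, and all 47 values stayed below 0.

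The genes called lower in both genotypes numbered 40 and covered every role. Ccne2, the cyclin E gene with the smallest p in both genotypes, read 769, 1298 and 1035 in ko at 4 months, against 3118, 3494 and 3373 in ko at 1 month (log2 difference -1.69, SE 0.16, limma adjusted p = 1.6e-05). In wt it read 648, 772 and 761 at 4 months, against 2422, 2599 and 2613 at 1 month (-1.77, SE 0.16, limma adjusted p = 4.1e-06). The highest array at 4 months, 1298, stood below the lowest at 1 month, 2422.

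The licensing genes were all lower in both genotypes. Mcm5, a helicase subunit, read 3982, 5462 and 4580.5 in ko at 4 months, against 11194, 10729 and 9140 in ko at 1 month (-1.15, SE 0.14, limma adjusted p = 8.6e-05). In wt it read 3708, 3677 and 4045 at 4 months, against 8771, 8491 and 9468 at 1 month (-1.22, SE 0.14, limma adjusted p = 1.7e-05). The other licensing genes also fell, with log2 differences of -0.49 (Mcm7) to -1.13 (Mcm3 and Cdc6) in ko, and of -0.79 (Mcm3) to -2.09 (Cdc6) in wt. Cdc6 had the largest fall of the 47 genes in wt, where its arrays read 1104, 2108 and 1154 at 4 months, against 6720, 6191 and 5252 at 1 month (limma adjusted p = 4.1e-06). The 4 genes that fire origins fell too, with log2 differences of -1.15 to -1.20 in ko and of -1.12 to -1.72 in wt, with Gins1 at -1.20 in ko and -1.72 in wt, and Cdc45 at -1.20 and -1.53.

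Primase and polymerase alpha were also lower in both genotypes, while 3 small values stood among the polymerase genes. Prim1 read 2500.5, 2487 and 2594 in ko at 4 months, against 5540, 5085 and 5154 at 1 month (-1.05, SE 0.14, limma adjusted p = 0.000196). In wt it read 1698, 1932 and 1609 at 4 months, against 6354, 4965 and 4285 at 1 month (-1.54, SE 0.14, limma adjusted p = 4.1e-06). Pola1 was at -1.26 in ko and -1.43 in wt, called in both. Its partner subunit Pola2 was at -0.44 and -0.22 and was not called in either genotype, and Pold2 was likewise not called, at -0.12 and -0.23. Pold1 was called in ko (-0.55, SE 0.14, limma adjusted p = 0.01) and not in wt (-0.24, SE 0.14, limma adjusted p = 0.238), a difference between genotypes that was itself not called (limma adjusted p = 0.698).

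Among the clamp genes, Rfc4 fell in both genotypes, with log2 differences of -1.10 in ko and -1.45 in wt, as did Rfc5 (-0.90 and -0.94) and Rfc3 (-0.74 and -0.90). Rfc2 was at -0.46 and -0.48, and was called in neither genotype by its main probe set, though both of its other probe sets were called lower in ko, at -1.05 and -1.08. Pcna was called in wt (-0.95, SE 0.19, limma adjusted p = 0.0021) and not in ko (-0.31, SE 0.19, limma adjusted p = 0.262), and the test of that difference missed the threshold (0.64, SE 0.26, limma adjusted p = 0.519). Both RPA subunits fell in both genotypes, Rpa1 with -0.56 in ko and -0.69 in wt, and Rpa2 with -0.82 and -1.17.

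The 5 nucleotide genes fell in both genotypes, with log2 differences of -0.74 (Rrm2) to -1.26 (Dut) in ko and of -1.30 (Dut) to -1.64 (Rrm2) in wt. Dut thus fell by nearly the same in both genotypes. The test of a difference between the genotypes called none of the 5 genes, Rrm2 included. Dut read 1859, 1747 and 2127 in ko at 4 months, against 4352, 4252 and 5265 at 1 month. In wt it read 1283, 1352 and 1282 at 4 months, against 3410.5, 2687 and 3796 at 1 month. Fen1 fell as well, with -0.96 in ko and -1.45 in wt, and so did Lig1, with -0.92 and -1.42.

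E2f8, E2f7 and E2f1 fell in both genotypes, with log2 differences of -0.97, -0.81 and -1.33 in ko and of -2.02, -1.88 and -0.91 in wt. E2f2 fell in wt (-1.46, SE 0.20, limma adjusted p = 0.00011) and was not called in ko (-0.39, SE 0.20, limma adjusted p = 0.191). Its second probe set, however, was called lower in ko as well, at -1.14 (SE 0.25, limma adjusted p = 0.0046). The E2f1 probe sets disagreed, since the second one gave -0.05 in ko and -0.31 in wt, with no call. Ccne1 was called in wt (-1.05, SE 0.24, limma adjusted p = 0.0061) and not in ko (-0.23, SE 0.24), where replicate 1 at 1 month read 3838 beside 1724 and 1804, while its second probe set was called in both, at -1.17 and -1.18. The 4 chromatin genes fell in both genotypes, with -0.56 (Dnmt1) to -1.24 (Uhrf1) in ko and -0.66 (Dnmt1) to -1.31 (Chaf1b) in wt, and Brca1 fell with -1.07 and -1.49.

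**Figure D4:**
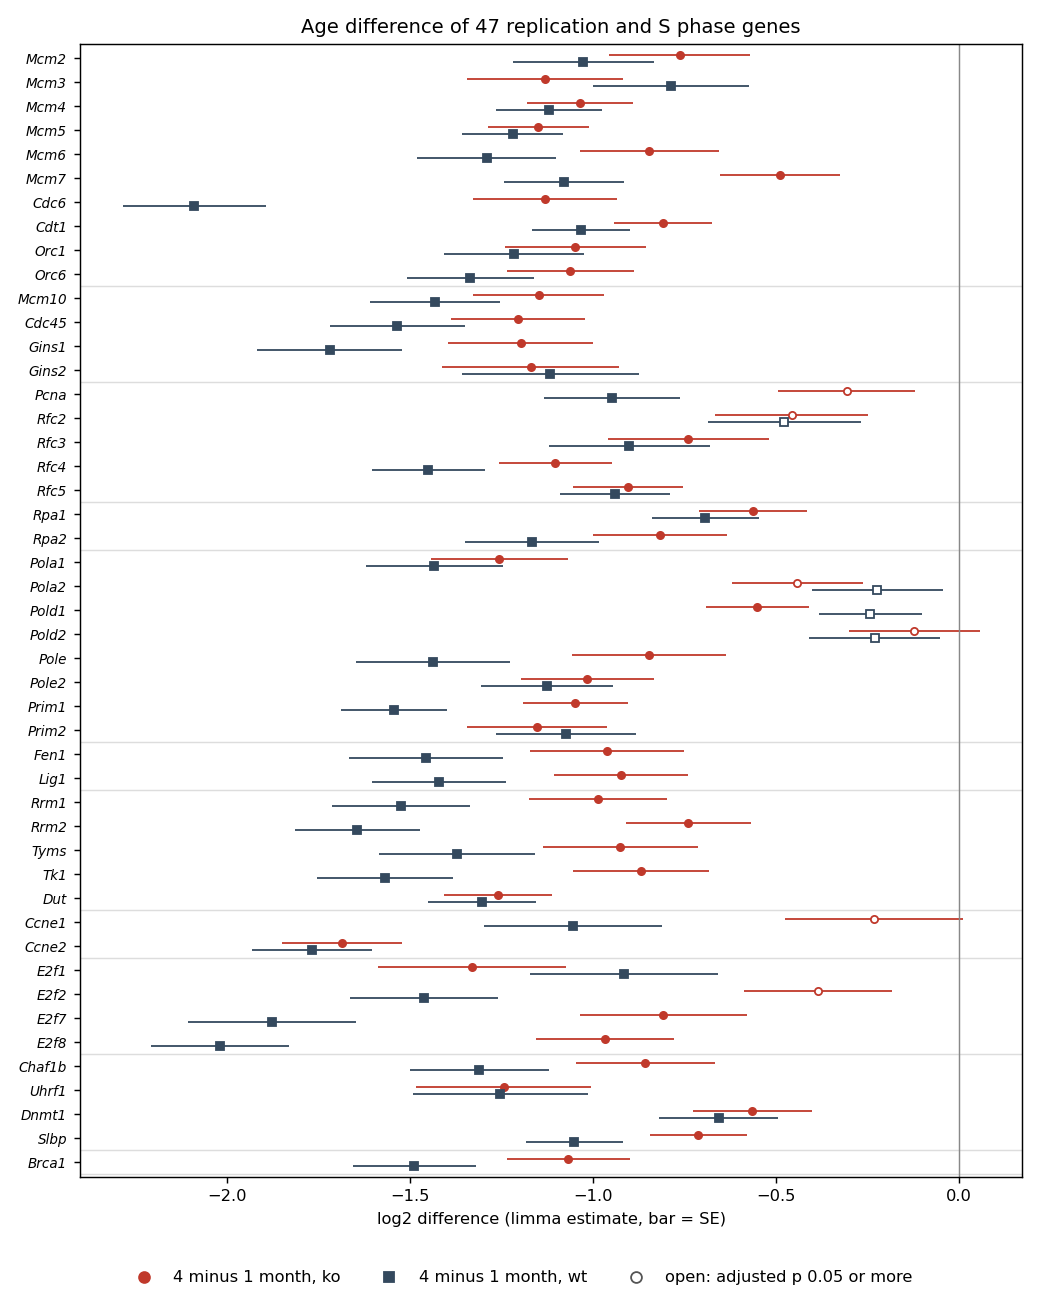
Log2 difference of 4 months minus 1 month (horizontal axis, limma estimate with SE bar) for the 47 genes in ko (circles) and wt (squares), with filled symbols for an adjusted p under 0.05. All 47 values lie left of 0 in both genotypes, with 41 filled in ko and 43 in wt, and Rfc2, Pola2 and Pold2 are open in both.

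Genes of the same process outside the 47 were read from lists of other replication genes and of mitosis and spindle genes. Of 39 other replication genes, 7 were called higher and 1 lower in ko at 4 months (median log2 difference 0.38). Over all tested probe sets 1.78% were called higher and 0.518% lower in this comparison. Clspn, the checkpoint mediator claspin, read 1218, 1428 and 1269 in ko, against 562, 694 and 451 in wt (1.17, SE 0.16, limma adjusted p = 0.000882). Tipin, a fork protection factor, was at 0.97 (limma adjusted p = 0.0153), and Top2a, the topoisomerase that untangles copied DNA, at 0.68 (0.0225). The gene called lower was Orc4, an origin recognition subunit, at -0.61 (SE 0.15, limma adjusted p = 0.0399). Of 29 mitosis and spindle genes, 14 were called higher and none lower (median 0.71), with Ect2, a regulator of cytokinesis, at 0.83 (limma adjusted p = 0.0085) and the mitotic cyclin Ccnb2 at 1.00 (0.0103). At 1 month neither list had a call, with medians of 0.14 and 0.11. With age, 31 of 39 other replication genes were lower in ko and 31 in wt (medians -0.91 and -1.02), and 28 of 29 mitosis genes in ko and 29 in wt (medians -1.02 and -1.66). The share of all tested probe sets called lower with age was 9.25% in ko and 9.67% in wt. In both lists every array at 1 month lay above every array at 4 months, and the 3 ko arrays at 4 months above the 3 wt arrays of that age. At 1 month the genotypes overlapped in the mitosis score, unlike in the scores of the 47 genes and of the other replication genes. The score of the other replication genes was 0.52 to 0.59 in ko and 0.32 to 0.50 in wt at that age. The mitosis score was at -0.39 to -0.27 in ko at 4 months, -1.24 to -0.71 in wt at 4 months, 0.67 to 0.80 in ko at 1 month and 0.49 to 0.78 in wt at 1 month. Without wt replicate 2 of 4 months, 10 other replication genes and 19 mitosis genes were called higher in ko at that age, and within the low set 7 and 8 were, with Orc4 no longer called there.

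Markers of blood-forming cells were read beside the replication genes, and their lists did not all follow the same order of groups. Of 11 erythroid markers, among them Alas2, Slc4a1 and Hemgn, 9 were called higher in ko at 4 months (median log2 difference 1.14) and none at 1 month. Over all tested probe sets 1.78% were called higher in ko at 4 months and 0.203% at 1 month. The erythroid markers summed to 93939 to 108492 in ko at 4 months, 42974 to 74109 in wt at 4 months, 132001 to 149062 in ko at 1 month and 126766 to 168840 in wt at 1 month. They stand in the same order of ages and, at 4 months, of genotypes as the 47 genes, and 7 were called lower with age in ko and 11 in wt. The share of all tested probe sets called lower with age was 9.25% in ko and 9.67% in wt. All 10 neutrophil precursor markers, among them Ngp, Camp and Ltf, were called higher in ko at both ages, with medians of 2.81 at 4 months and 2.05 at 1 month. Their sums were 19492 to 27165 in ko at 4 months, 2070 to 4537 in wt at 4 months, 65163 to 92276 in ko at 1 month and 15436 to 22653 in wt at 1 month. Unlike the replication genes, they separated the genotypes by a wide margin at 1 month, and all 10 were called lower with age in both genotypes. Without wt replicate 2 of 4 months, 11 erythroid and 10 neutrophil precursor markers were called higher in ko at 4 months, and within the low array set 9 and 10 were. At 1 month 8 of the 10 neutrophil precursor markers were called within the low set.

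All 9 megakaryocyte markers, among them Ppbp and Pf4, were called higher in ko at 4 months (median 1.12) and none at 1 month. With age 6 were lower in wt and 1 was higher in ko. Over all tested probe sets 1.78% were called higher in ko at 4 months and 0.203% at 1 month, and 0.518% and 0.24% lower. The share called lower with age in wt was 9.67%, and the share called higher with age in ko was 13.6%. The megakaryocyte markers summed to 35694 to 49011 in ko and 15086 to 25098 in wt at 4 months. At 1 month they summed to 33452 to 35202 in ko and 30561 to 38222 in wt. At 4 months 9 were called higher in ko without wt replicate 2 and 7 within the low set, where the call higher with age in ko was lost. Of 7 B cell markers none was called at 4 months between the genotypes (median -0.33), 1 was called lower in ko at 1 month, and 6 were called higher with age in each genotype, where 13.6% of all tested probe sets were called higher in ko and 11.8% in wt. With the array set as a block 1 was called lower in ko at 4 months. That block and the low set alone each left no B cell marker called at 1 month, and the 6 calls with age in wt became 4 without wt replicate 2 and 0 within the low set. Of 6 T cell markers none was called between the genotypes at either age, and 6 were higher with age in ko and 2 in wt, which became 1 and 0 within the low set. Without wt replicate 2, 1 was called higher in ko at 4 months. The T cell markers summed to 8575 to 10317 in ko at 4 months, 9582 to 10967 in wt at 4 months, 4898 to 6323 in ko at 1 month and 6952 to 7670 in wt at 1 month. Of 6 germinal centre B cell markers, 1 (Bcl6) was called lower in ko at 4 months and none higher, with 5 values below 0 and 1 above. At that age they summed to 1611 to 1891 in ko and 2298 to 2653 in wt. The call of Bcl6 was lost within the low set. At 1 month they summed to 1177 to 1253 in ko and 1350 to 1647 in wt. The 4 pancreas markers were not called in any comparison, though 1 was called higher with age in ko within the low set. The part of these cell types in the differences of the replication genes was not tested.

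**Figure D5:**
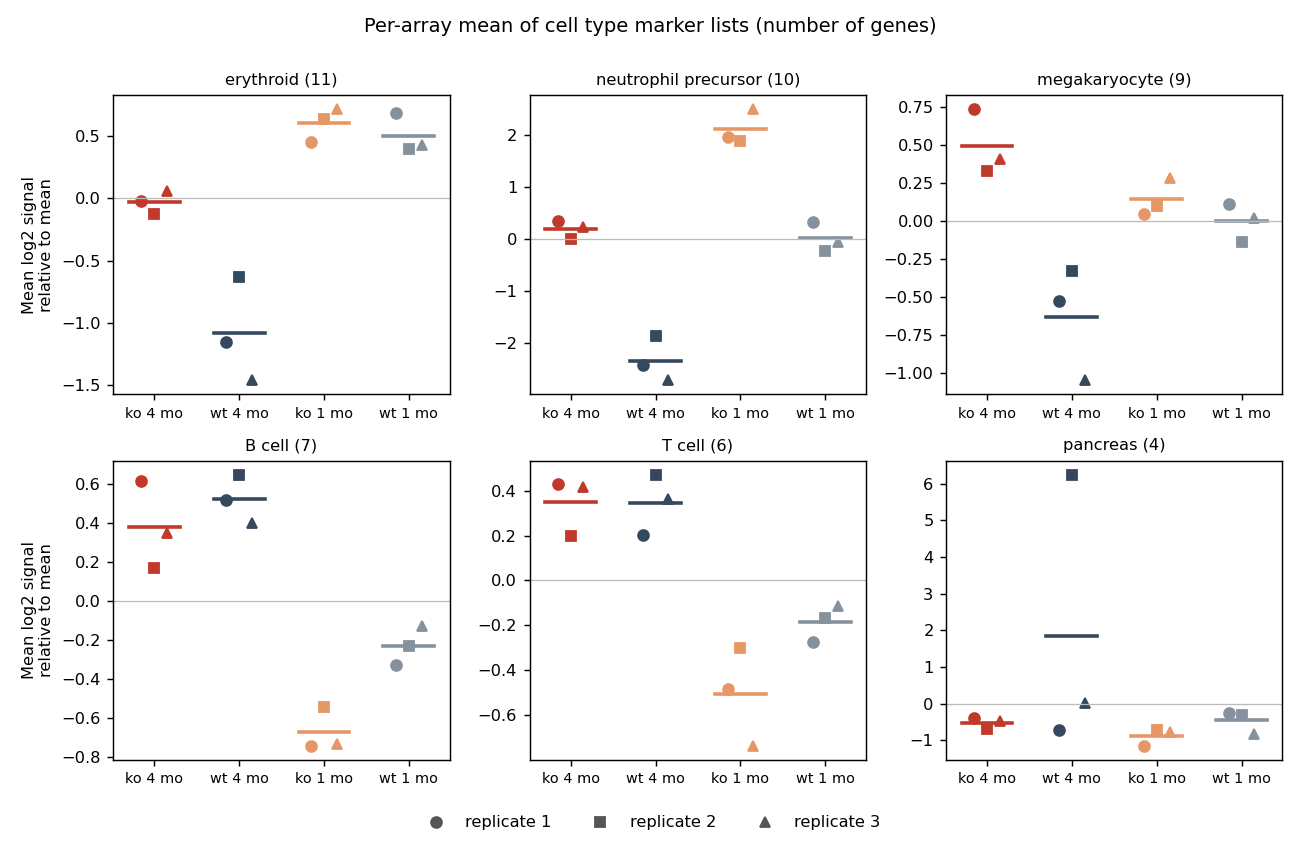
Mean log2 signal of 6 cell type marker lists per array, relative to each gene's mean over 12 arrays (vertical axis, log2 units), with arrays shaped by replicate number and bars at the group means. The erythroid and neutrophil precursor lists are lowest in wt at 4 months, the B cell and T cell lists are higher at 4 months than at 1 month, and the pancreas list stands at 6.25 in wt at 4 months replicate 2.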

How the data were processed

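Total RNA from 12 spleens was biotin-labelled and hybridised to Affymetrix arrays, per the labels. The deposited values are signal intensities on a linear scale, 1 per probe set, and the submitters' processing notes name MAS5 without a version. MAS5 signals of different probe sets respond differently to the same amount of RNA, so no gene's level was compared with another's. The order of signal within a list served only to choose which markers to name. Genes were named through the platform annotation, whose symbols can be old. It gives 1 symbol to 34945 of the 45101 probe sets, several to 932 and none to 9160, beside 64 controls that were left out.

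Signals were scaled so that the 2% trimmed mean of an array is 500, and log2 was taken after adding 32. The 27041 probe sets that reached 100 on 3 or more of the 12 arrays were tested. A model with 4 group means and no covariate was fitted with limma 3.58.1 in R 4.3.3 (lmFit, eBayes with an intensity trend, 8 residual and 8.27 prior degrees of freedom), with 2-sided tests. On data simulated for ko against wt at 4 months over 27041 probe sets, 68 of 100 raised by a log2 of 1 and 99 of 100 raised by 2 were recovered, with 10 false calls. The simulated noise was independent between probe sets and held no pancreas signal or array sets, so recovery and false calls on the real arrays may differ. The number of arrays, 3 a group, limits the precision. Errors are SE from limma.

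The genes and all gene lists were chosen with earlier results of these data known. Genes named per comparison are the members called, in order of p, or else those with the smallest p. From each other list at most 4 called genes are named, and for markers the 3 with the highest signal. Others were named to account for every member or after their values were seen. Pathway lists held 39 other replication genes, 29 mitosis and spindle genes and 13 CDK inhibitors, pocket proteins and cyclins D. Marker lists covered erythroid cells, neutrophil precursors, mature neutrophils, megakaryocytes, B cells, germinal centre B cells, plasma cells, T cells, macrophages and pancreas.

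Same-numbered replicates did not deviate together (r between -0.20 and 0.21), so the main fit has no block. The alternatives were quantile normalization, median centring, an offset of 1 or 64, a filter at 200 or none, no intensity trend, array weights, the replicate number or the array set as a block, each array set alone, only the arrays compared, the probe set of largest spread, and leaving out each array. Promoter windows and their coordinates are those of RefSeq on GRCm38.p6, matched by symbol, and the build behind the array annotation was not given in the sources used here.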

Additional observations from a re-analysis of the deposited data

How the results depend on the processing

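All 47 age differences were negative in each genotype as analysed, and the counts of genes lower with age moved by less than 1.5 times under every alternative run. The genotype result at 4 months was less settled. Its 9 calls became 3 without an intensity trend, 14 with array weights, 1 within the high array set, and 2 to 20 with single arrays left out, while its median log2 difference of 0.50 was 0.72 within the low set and 0.43 to 0.67 with single arrays left out. At 1 month the 0 calls became 0 to 5 with single arrays left out. For the difference between ages the 0 calls became 0 to 2 with single arrays left out, and the median of 0.28 was 0.52 within the low set and 0.17 with the probe set of largest spread. With that probe set the median at 1 month, 0.18, was 0.31. The age median of -0.92 in ko was -1.09 with median centring, and that of -1.25 in wt was -1.40 within the low set. The cause of these shifts was not tested. The other gene lists were also read without wt replicate 2 of 4 months, with the array set block and within the low set, settings chosen after seeing the data.

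With the replicate block, 7 genes were called higher at 4 months (Dnmt1 and Chaf1b were lost), 40 lower with age in ko and 43 in wt, and 0 in the other comparisons.

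Counts over all probe sets moved more. Calls higher in ko at 4 months (481) were 193 without an intensity trend, 287 with only the arrays compared, 225 and 66 within the low and high sets and 136 to 739 with single arrays left out. Those at 1 month (55) were 31 with the array set block, 35 with only the arrays compared, 24 within the low set and 25 to 842 with single arrays left out. Those for the difference between ages (8) were 5 without a filter, 1 without a trend, 19 with array weights, 2 within the low set and 2 to 72 with single arrays left out. Calls lower with age in ko (2502) were 3927 with median centring, 4385 with array weights, 1161 within the low set and 1436 to 2263 with single arrays left out. In wt (2616) they were 1713 with only the arrays compared and 1186 within the low set. Higher and lower calls with age split 3685 to 2502 in ko, 2190 to 3927 with median centring and 2649 to 2563 with quantile normalization. In wt they split 3179 to 2616, 1851 to 3301 and 2563 to 2733. At 1 month they split 55 to 65, 58 to 35 and 55 to 39. Within an array set a group can hold 1 array, which is then assumed to vary like the others.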

Other observations

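The inhibitors and partners of the G1 machinery did not move as one group. Of 13 CDK inhibitors, pocket proteins, further E2F factors and cyclins D, 1 was called in ko against wt at 4 months and none at 1 month. Their median log2 differences were 0.05 and 0.16. Over all tested probe sets 1.78% were called higher and 0.518% lower at 4 months, and 0.203% and 0.24% at 1 month. The called gene was Cdkn2c, which codes for the CDK4 and CDK6 inhibitor p18. It read 2438, 2539 and 2605 in ko at 4 months, against 1275, 1911 and 1221 in wt (log2 difference 0.80, SE 0.17, limma adjusted p = 0.0202), with no overlap. With age it fell, with a log2 difference of -0.51 in ko (SE 0.17, limma adjusted p = 0.038) and -1.45 in wt (SE 0.17, limma adjusted p = 2.1e-05). Rb1, the retinoblastoma gene, fell with -0.57 in ko and -0.96 in wt, and Cdkn2d, a further CDK4 and CDK6 inhibitor, with -0.76 and -1.14. Rbl2, which codes for the pocket protein p130 of resting cells, went the other way. It read 1596, 1594 and 1433 in ko at 4 months, against 1037, 918 and 858 in ko at 1 month (log2 difference 0.70, SE 0.17, limma adjusted p = 0.0089). In wt it read 1929, 1636 and 1734 at 4 months, against 645, 1052 and 1068 at 1 month (0.95, SE 0.17, limma adjusted p = 0.0013), so that in both genotypes every array at 4 months lay above every array at 1 month. In all, 4 of the 13 genes were lower and 1 higher with age in ko, and 6 lower and 3 higher in wt. Over all tested probe sets 9.25% were called lower and 13.6% higher with age in ko, and 9.67% and 11.8% in wt. Without wt replicate 2 of 4 months, 3 were called higher in ko at 4 months, and with age in wt 4 were lower and 2 higher. Within the low array set none was called at 4 months, Cdkn2c included, and with age 1 was lower and 1 higher in ko, and 3 lower and 0 higher in wt.

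The remaining marker lists are given as values. Over all tested probe sets 1.78% were called higher in ko at 4 months and 0.203% at 1 month, and 0.518% and 0.24% lower. Of 7 mature neutrophil markers, among them S100a8 and S100a9, 4 were called higher in ko at 4 months and 4 at 1 month, and at 4 months 3 without wt replicate 2 and 2 within the low set, where 3 were called at 1 month. The median log2 difference of the mature neutrophil markers with age was -0.69 in ko and -0.41 in wt, with 5 and 6 of the 7 below 0. Of 6 macrophage markers, among them Csf1r and Vcam1, none was called between the genotypes at 4 months, and 1 (Marco) was lower in ko at 1 month. With age 6 were higher in ko and 5 in wt, where 13.6% and 11.8% of all tested probe sets were called higher. Within the low set the call of Marco was lost, and 6 were higher with age in ko and 1 in wt. Of 6 plasma cell markers, among them Jchain and Xbp1, none was called between the genotypes, and 5 were higher with age in ko and 4 in wt. These became 3 and 0 within the low set, and the 4 in wt became 3 without wt replicate 2.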
